A study of Homo sapiens with 6 samples.

Results

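The cytosolic ribosomal protein genes encode the proteins of the ribosomes that translate nuclear mRNAs. They were chosen by symbol, as GENCODE protein-coding genes named RPL, RPS or RPLP with a number, with the endings A, X, L, AL or L1 allowed, and RPSA. The rule found 85 genes among 58302 gene IDs, 53 of the large subunit and 32 of the small subunit. Of these, 77 were core genes and 8 were paralogs, second copies that resemble a core gene (RPL3L, RPL7L1, RPL10L, RPL22L1, RPL26L1, RPL36AL, RPL39L and RPS27L). FAU and RACK1, which also give ribosome components, have other names and were looked at separately.

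Bulk RNA-seq was analysed for A375, a human melanoma cell line, in 3 libraries from cells carrying an empty vector (EV) and 3 from cells stably overexpressing HMGB2 (HMGB2OE), a DNA-bending chromatin protein. The study made its stable lines by lentiviral transduction, poly(A) RNA was sequenced, and the study calls the replicates of a condition technical, so p-values measure the spread between cell pellets of a line. The effect of HMGB2 and the separate history of each line cannot be told apart.

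A ribosome joins a small subunit, which reads the mRNA, to a large subunit, which forms the peptide bond and holds the exit tunnel. Core ribosomal proteins are needed in nearly equal numbers and their mRNAs are among the most abundant of a growing cell. Most of these mRNAs begin with a C and a run of pyrimidines, the 5′ terminal oligopyrimidine (TOP) tract, through which mTOR and LARP1 control their translation. The RNA level measured here does not show that translational step.

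The annotated starts showed how far the genes share this tract. RefSeq promoters (GRCh38.p14, 250 bases before to 50 after the start) matched 68 of the 85 genes. A C at the annotated start followed by at least 4 further bases that were C or T was found in 47 of 68 ribosomal protein genes (69.1%), against 988 of 15843 protein-coding genes (6.24%). Core genes held it in 46 of 62 cases and paralogs in 1 of 6, RPL22L1. The 6-letter motif CCGGAA, or TTCCGG on the other strand, whose letters can overlap the tract, lay within the whole promoter windows of 39 of 68 ribosomal protein genes (57.4%), against 26.6% of protein-coding genes. The windows printed next are 15 bases before and 15 after the start, 5′ to 3′ on the gene's strand, with capitals for the run of C and T from the start where that base is C. They are those of the 2 genes called higher, of RPL7A, the next by adjusted p, and of core genes beside their paralogs.
RPS26, chr12:56041903-56041932, plus strand: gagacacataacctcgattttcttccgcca
RPL21, chr13:27251543-27251572, plus strand: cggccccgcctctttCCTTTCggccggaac
RPL7A, chr9:133348203-133348232, plus strand: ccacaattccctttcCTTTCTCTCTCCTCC
RPL22, chr1:6199581-6199610, minus strand: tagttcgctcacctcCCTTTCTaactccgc
RPL22L1, chr3:170870181-170870210, minus strand: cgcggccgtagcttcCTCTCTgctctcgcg
RPS27, chr1:153990747-153990776, plus strand: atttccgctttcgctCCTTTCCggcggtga
RPS27L, chr15:63157463-63157492, minus strand: aagttgatgccgagcgcagatcgcttgcag
RPL36A, chrX:101390996-101391025, plus strand: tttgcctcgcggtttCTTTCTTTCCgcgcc
RPL36AL, chr14:49620612-49620641, minus strand: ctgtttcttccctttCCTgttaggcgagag
RPL22 and RPL22L1 both start with a run past the minimum, while RPS27L has none where RPS27 has one. RPL36AL has a run of 3 bases, under the minimum, where RPL36A has 10. RPL21 has a run of 6 bases and RPL7A one of 16, which goes past the window. The listed start of RPS26 is not a C, which says nothing of starts used elsewhere in the gene.

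HMGB2 itself checked the labels. Its normalized counts (counts divided by the DESeq2 size factor) were 7250, 7729 and 7562 in EV and 15095, 16848 and 14609 in HMGB2OE, 1.05 higher on the log2 scale (SE 0.10, adjusted p = 4.4e-22 by DESeq2). Between 45925053 and 56755212 reads per library were assigned to genes. EV replicate 3 stood apart from the other EV libraries. Its median deviation from the gene mean was -0.14 (log2) over genes with long transcripts (the upper 20% by length) and 0.11 over genes with short ones (the lower 20%), ribosomal protein genes left out, against 0.03 and 0.09 (long) and -0.03 and -0.07 (short) in EV replicates 1 and 2. HMGB2OE replicate 3 had the same signs, with -0.05 and 0.08, and 10.6% multimapped reads against 2.58% to 4.89% in the other 5 libraries. Values without these libraries are given where they change a call or move a value by much. Ribosomal protein transcripts are short, with a median length of 785 bases against 2939 for all genes that averaged at least 10 normalized counts.

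The 8 markers listed for the melanocyte lineage included PRAME, a germline antigen rather than a lineage gene. PRAME, S100B and MITF were present. SOX10 was at 0 in the either-strand counts but had 253416 stranded counts. PMEL had 49.6 to 67.0 normalized counts, with 3.37% of its stranded counts in the either-strand column. TYR, DCT and MLANA were near 0 (at most 10.8 normalized counts in a library). Summed over the list, 13171 to 14090 normalized counts were found in EV and 14328 to 14839 in HMGB2OE. Most of the sum was PRAME, with 8096 to 9221 in EV and 9042 to 9294 in HMGB2OE. The 8 markers of other cell types summed to 2334 to 4393 in EV and 3952 to 5360 in HMGB2OE, with PTPRC at 0 in every library and 0 of 6 tested genes called, 2 being higher at an unadjusted p under 0.05. Without EV replicate 3, and likewise with replicates 1 and 2 alone, 2 of them, KRT5 and COL1A1, were called higher. COL1A1, which made up most of the sum, was 0.82 higher on the log2 scale without EV replicate 3 (adjusted p = 5.92e-07 by DESeq2) and 0.52 with all libraries (0.208). Within that list KRT5 was 5.1 and 11.5 in EV replicates 1 and 2 but 279.0 in EV replicate 3 and 199.9 to 289.2 in HMGB2OE. EV replicate 3 was thus also nearer to HMGB2OE in KRT5. The groups overlapped in KRT14, the other keratin gene of the list. It had 522.3, 442.9 and 641.8 in EV and 420.6, 529.9 and 694.4 in HMGB2OE (log2 fold change 0.03). VWF had a negative log2 fold change (-0.40, not called). Whether these markers bear on the ribosomal protein results was not tested.

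The ribosomal protein genes were a large part of the RNA. Their counts made up 10.9%, 10.7% and 12.3% of reads assigned to genes in EV replicates 1, 2 and 3 and 11.97%, 11.6% and 12.8% in HMGB2OE, with means of 11.3% ± 0.871 and 12.1% ± 0.618 (SD, n = 3). The groups overlapped, since EV replicate 3 lay above HMGB2OE replicates 1 and 2. The difference of the means was 0.79 percentage points, and between 0.456 and 1.29 when a library was left out. Large subunit genes took 6.20% in EV and 6.68% in HMGB2OE, and small subunit genes 5.12% and 5.44%. The ratio of large to small subunit counts was 1.25, 1.27 and 1.13 in EV and 1.23, 1.27 and 1.19 in HMGB2OE, lowest in replicate 3 of each group. The paralogs together held 0.0522% of assigned reads in EV and 0.0582% in HMGB2OE.

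Levels between genes were compared as TPM, counts per canonical GENCODE transcript length as a share of each library's total, as means over the 6 libraries. Among the highest core genes were RPS2 (11490 TPM), RPS16 (8991), RPL27 (8919) and RPL8 (8855). RPS2 lies at the mRNA entry of the small subunit, and RPL8 lies near the peptidyl transferase centre of the large subunit. The lowest core genes were RPS10 (0.656 TPM), RPL36A (1.83), RPL17 (8.60), RPS15A (63.4) and RPL26 (65.7), against a median of 2170 over the 85 genes. Canonical transcripts with a long 3′ end lower this value, and per kilobase of coding sequence RPL41, RPLP1, RPS16, RPS3 and RPS2 ranked highest. RPS16 and RPS2 were in the top 5 by both lengths. RPS10, RPL36A and RPL17, with RPL3L and RPL10L, were the 5 lowest by both.

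The counting rule sets reads of some core genes aside, since a read enters the table only when it falls in a single gene. RPL17, RPS10 and RPL36A share 546, 445 and 284 of their 50-base words with the readthrough genes RPL17-C18orf32, RPS10-NUDT3 and RPL36A-HNRNPH2, each of which was at 0 in every column. RPL17 lines the exit tunnel and RPS10 is a protein of the small subunit head, and whether their mRNAs are scarce cannot be told from these counts. For 5 genes the either-strand counts were under 50% of the sum of the 2 stranded columns, with 7.92% in RPS23, 22.1% in RPL23A, 25.6% in RPL30, 36.0% in RPS3A and 43.98% in RPL10. RPS23 overlaps ATG10, RPL30 overlaps RPL30-AS1 and RPL10 overlaps DNASE1L1 on the other strand, and a read in such an overlap is counted for both genes in the stranded columns, so its origin cannot be told apart. The median of this share over all 85 genes was 100%. In addition, 24 of the 85 genes had 50% or more of their 50-base words in common with other genes, and a read that fits several places is not counted.

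**Figure D1:**
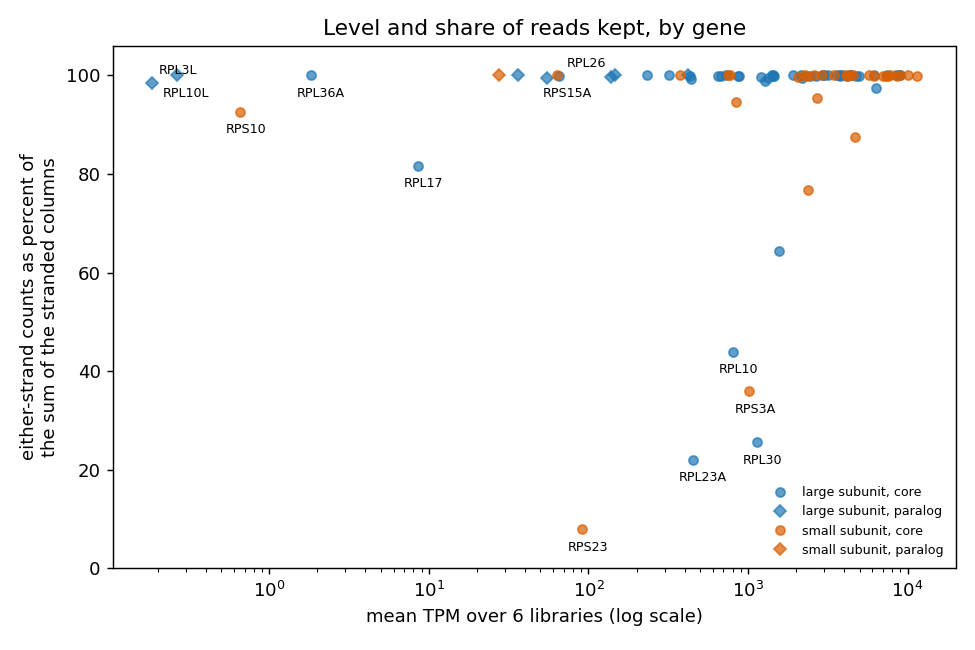
Each point is a ribosomal protein gene, with its mean TPM over 6 libraries on a log axis and its either-strand counts as a percent of the sum of the stranded columns, coloured by subunit and with diamonds for paralogs. RPS23, at 7.92%, is the lowest on the vertical axis, and RPS10, RPL36A and RPL17 sit far left of the other core genes.

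Individual differences between HMGB2OE and EV were small. DESeq2 called 2 of the 85 genes higher in HMGB2OE, RPS26 and RPL21, and 0 lower at an adjusted p under 0.05. Over all 18836 genes tested, 2.29% were called higher and 2.64% lower, so 2 of 85 is near the background. At an unadjusted p under 0.05, 7 genes were higher and 0 lower, against 6.98% higher and 7.31% lower over all genes tested. edgeR's quasi-likelihood test called 1 higher, RPS26, and 0 lower, against 1.28% of all genes called higher. The 95% interval lay between a 1.5-fold fall and a 1.5-fold rise for 78 of the 85 genes.

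RPS26 contacts mRNA near the exit channel of the small subunit. Its gene (ENSG00000197728) is at chr12:56041351-56044697 on the plus strand (hg38, GENCODE). Normalized counts were 9177, 9111 and 10540 in EV and 12490, 12970 and 15280 in HMGB2OE. Every HMGB2OE library lay above every EV library, and replicate 3 was the highest of each group. This was a log2 fold change of 0.50 (SE 0.12; adjusted p = 0.00216 by DESeq2), with an edgeR adjusted p of 0.0478. The call was lost without EV replicate 1 (DESeq2 adjusted p = 0.0826), EV replicate 2 (0.0596) or HMGB2OE replicate 3 (0.0769), with the log2 fold change between 0.41 and 0.57 as each library was left out.

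RPL21, a large subunit protein, is encoded on chr13:27251362-27256691, plus strand (ENSG00000122026). Normalized counts were 25830, 26210 and 24670 in EV and 31870, 31570 and 34980 in HMGB2OE, with a gap between the groups that was wider than the range within either. RPL21 differed by 0.36 on the log2 scale (SE 0.09), with adjusted p = 0.00486 by DESeq2 and 0.0597 by edgeR. RPL21 was called without EV replicate 3 and not without any of the other 5 libraries, where the DESeq2 adjusted p was 0.081 to 0.202. With counts corrected for GC content and transcript length RPL21 had a log2 fold change of 0.27 (adjusted p = 0.127 by DESeq2), and it was 0.49 for RPS26 under that correction (7.12e-07).

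Both called genes have many near copies. RPL21 shares 92.8% of its 50-base words with 66 other genes, and RPS26 30.6% with 28, so both counts are uncertain as to gene of origin. The 61 pseudogenes that share words with RPL21 had 0.677% of its counts, with sums of 172.7, 166.5 and 151.3 normalized counts in EV and 229.8, 213.7 and 252.1 in HMGB2OE. For RPS26, 26 pseudogenes held 1.70% of its counts, with 127.3, 138.2 and 167.4 in EV and 248.9, 231.5 and 269.0 in HMGB2OE. In both families the pseudogene sums of the groups did not overlap and were higher in HMGB2OE, as for the parent gene. This is not separate evidence, since the pseudogenes were picked for sharing words with a gene already called.

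RPL7A, a large subunit protein, had 78230, 87330 and 79720 normalized counts in EV and 97550, 93900 and 99970 in HMGB2OE. Its groups did not overlap, and the log2 fold change of 0.25 (SE 0.09) had a DESeq2 adjusted p of 0.115. It was called without EV replicate 3 (0.23, DESeq2 adjusted p = 0.0378). RPS14, a protein of the small subunit platform, had 144300, 123000 and 181800 in EV and 148200, 139100 and 158500 in HMGB2OE. EV replicate 3 was the highest of its 6 values and EV replicate 2 the lowest, and the log2 fold change was -0.01 (SE 0.15).

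**Figure D2:**
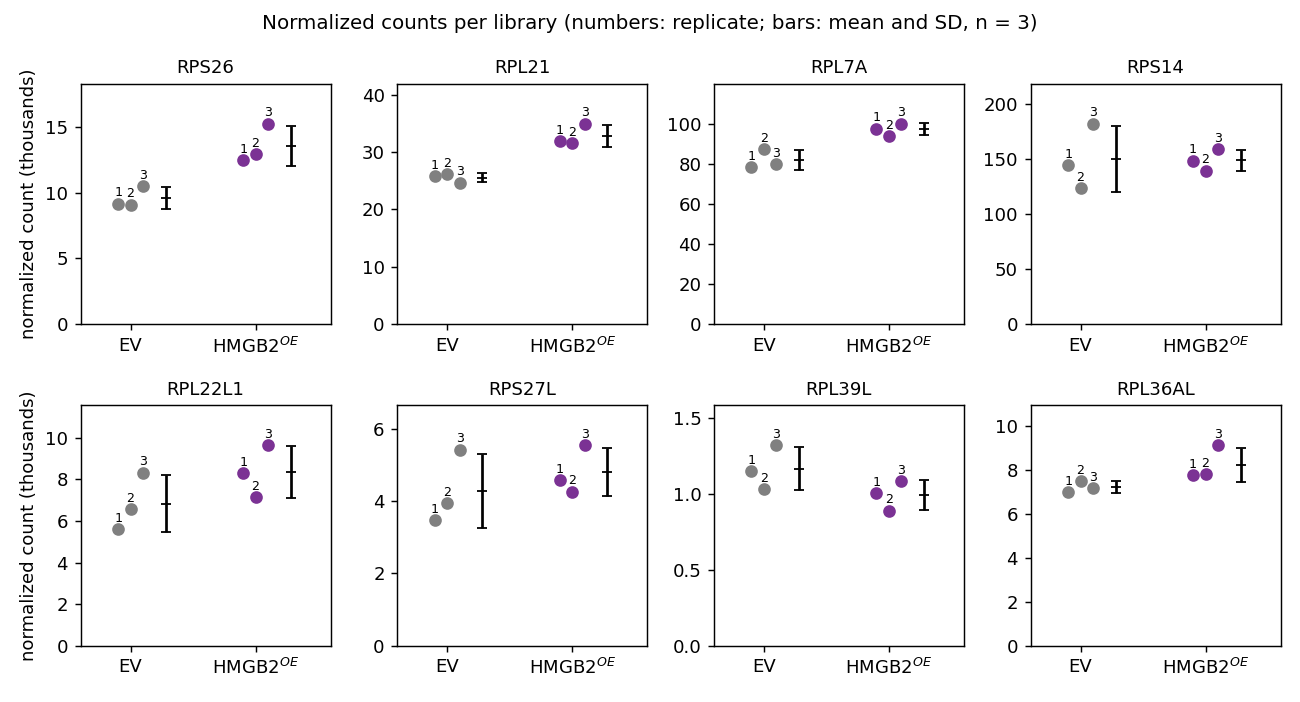
Normalized counts, divided by 1000, are plotted for 8 genes from 0, with a point per library numbered by replicate, and the mean and SD (n = 3) beside each group. The EV and HMGB2OE points do not overlap in RPS26, RPL21, RPL7A and RPL36AL, and they overlap in RPS14, RPL22L1, RPS27L and RPL39L.

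The lowest core log2 fold changes were those of RPL36A (-0.41, SE 0.34), RPS2 (-0.03), RPL28 (-0.02), RPS14 (-0.01) and RPL10 (-0.0037), none called. RPL36A rested on 45.5, 42.5 and 39.7 normalized counts in EV and 37.2, 30.5 and 28.1 in HMGB2OE, after the counting losses described above. RPL10, a late-joining protein near the peptidyl transferase centre, had 45790, 44130 and 50670 in EV and 46700, 46960 and 46570 in HMGB2OE. In the stranded sum its log2 fold change was 0.08. At the other end, after RPS26, stood RPS10 (0.47, SE 0.71, on at most 18 normalized counts per library), RPL17 (0.41, SE 0.27, on 102.0 to 224.0), RPL21 and RPL7A. RPL36A, RPS10 and RPL17 thus stood near the ends with few counts and wide errors. Among the 79 genes with a mean of 1000 or more, log2 fold changes ran from -0.23 to 0.50 with SEs of 0.08 to 0.18.

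**Figure D3:**
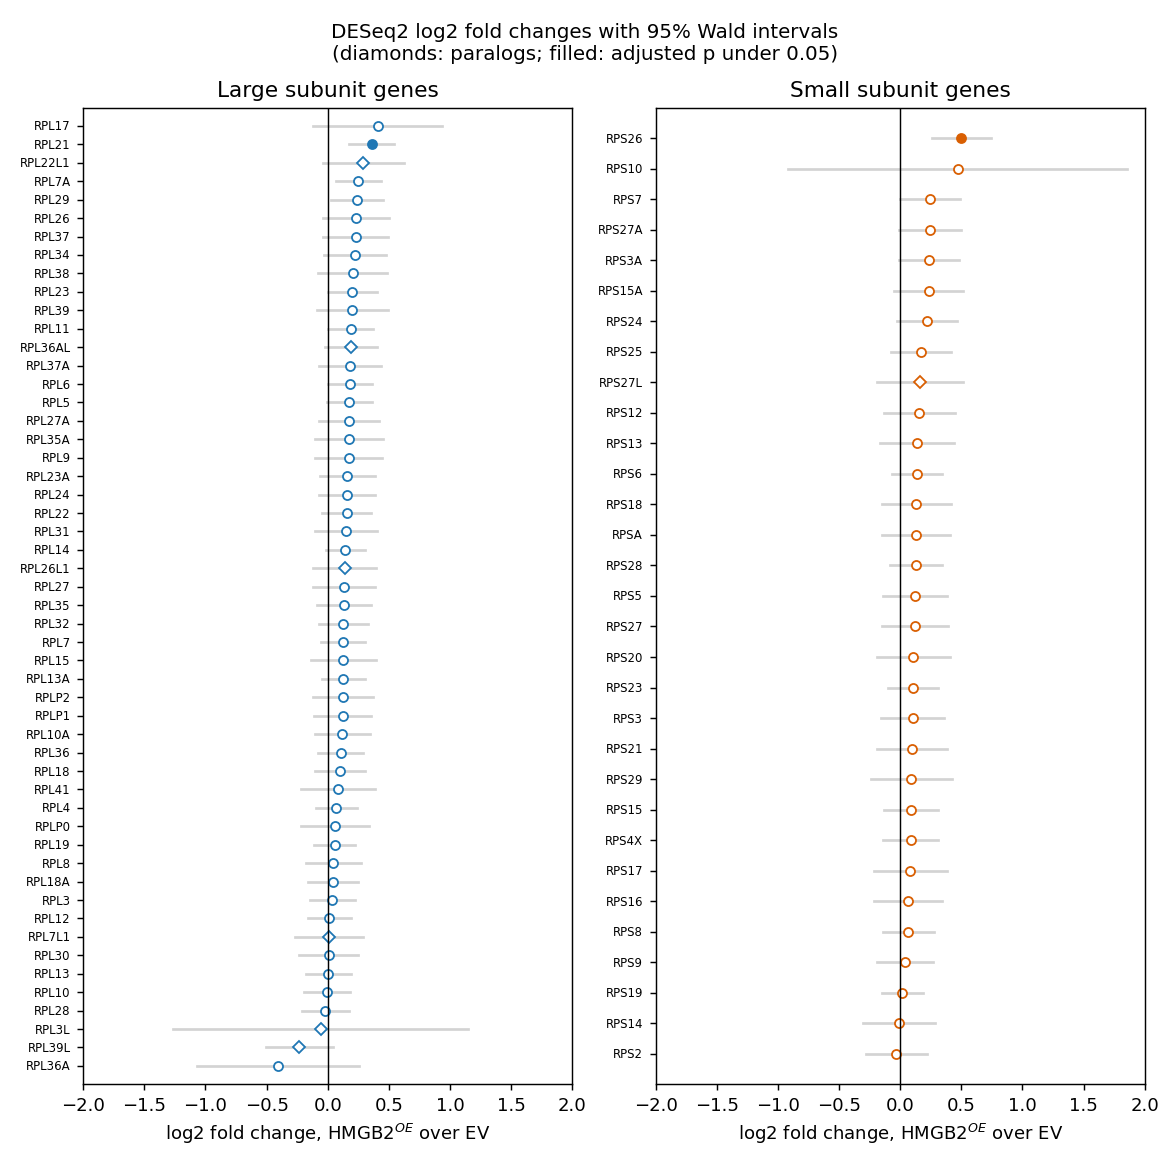
DESeq2 log2 fold changes of HMGB2OE over EV are shown with 95% Wald intervals for large and small subunit genes averaging at least 10 normalized counts, except a gene that is not reported here, ordered by value, with diamonds for paralogs and filled symbols for an adjusted p under 0.05. RPS26 and RPL21 are the filled points, and most other points lie right of 0 with intervals that cross it.

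Small positive values were common across the genes. The median log2 fold change was 0.13 over the 84 genes averaging at least 10 normalized counts (RPL10L, with a mean of 5.50, was left out), with quartiles of 0.08 and 0.18. It was positive in 77 of 84 (91.7%), against a median of -0.00098 and 49.8% positive over the 16692 genes with that mean. These counts are a description, since genes of a library share its errors. Non-member genes with a mean of 10000 or more had a median of 0.02 (831 genes), and those with short transcripts one of 0.01. With the GC content and length correction the ribosomal protein median was 0.10.

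The 3 HMGB2OE values all lay above the 3 EV values in 13 of the 84 genes and below in 1, RPL36A, against 11.4% higher and 11.4% lower over all 16692 genes. The 13 were RPL5, RPL6, RPL7, RPL7A, RPL11, RPL13A, RPL14, RPL21, RPL23, RPL29, RPL36, RPL36AL and RPS26. RPL5 and RPL11 are the proteins that, with 5S rRNA, bind MDM2 when ribosome assembly is disturbed. With fewer libraries overlap is less likely. Without EV replicate 3 the count was 60, against 25.5% of all genes, without HMGB2OE replicate 2 it was 32, against 15.5%, and without any of the other 4 libraries it was 12 to 17. Of the 13, 12 were among the 52 large subunit genes and 1 among the 32 small subunit genes. EV replicate 3 was the highest EV library in 33 of the 52 and in 31 of the 32. Its part in this split was not tested.

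The shift followed the libraries as well as the groups. Median deviations from the gene mean (log2) were -0.14, -0.13 and 0.08 in EV replicates 1, 2 and 3 and 0.03, -0.04 and 0.19 in HMGB2OE. EV replicate 3 thus lay above HMGB2OE replicates 1 and 2. It was the highest EV library in 64 of 84 genes (76.2%), against 42.3% of all genes, and HMGB2OE replicate 3 was the highest of its group in 75 of 84 (89.3%), against 39.4%. Without EV replicate 3 the median rose to 0.21 and 22 of the 85 genes were called higher, against 8.31% of all genes. Without HMGB2OE replicate 3 it was 0.06 and 0 were called, against 0.941% of all genes called higher and 1.35% lower. DESeq2 called 0 higher without EV replicate 1 or EV replicate 2, against 0.839% and 1.09% of all genes. It called 1 higher without HMGB2OE replicate 1 or HMGB2OE replicate 2, against 1.04% and 1.15%. With replicates 1 and 2 alone the median was 0.14 and 28 were called higher and 0 lower, against 8.01% of all genes called higher. The number called moved with most libraries left out and most with EV replicate 3, as did the share of all genes called. The part of transcript length or of sample handling in this was not tested.

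**Figure D4:**
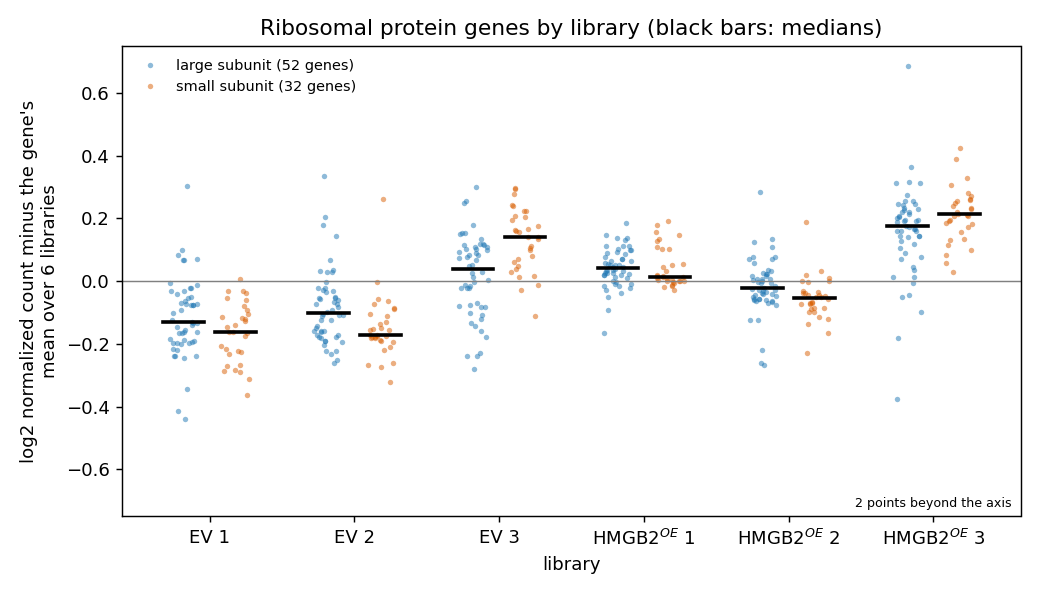
Each point is a gene's log2 normalized count (plus 1) minus its mean over the 6 libraries, for large (blue) and small (orange) subunit genes with a mean of 10 or more, with black bars at the medians and 2 points beyond the axis. The EV replicate 3 medians lie at 0.04 and 0.14, above those of EV replicates 1 and 2, and those of HMGB2OE replicate 3 at 0.17 and 0.21.

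Large and small subunit genes had near-equal medians in the comparison of all 6 libraries. The median log2 fold change was 0.13 for 52 large subunit genes, 47 of them positive, and 0.12 for 32 small subunit genes, 30 positive, with 1 called gene in each. The order turned with the library set. Without EV replicate 3 the large subunit median was 0.19 and the small subunit median 0.24, and without HMGB2OE replicate 3 they were 0.08 and 0.05. Within libraries the subunits moved apart most in EV replicate 3, with deviations of 0.04 (large) and 0.14 (small). EV replicate 3 was the highest EV library in 31 of 32 small subunit genes and in 33 of 52 large subunit genes, and HMGB2OE replicate 3 the highest of its group in 32 of 32 and 43 of 52. No difference between the subunits was tested.

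**Figure D5:**
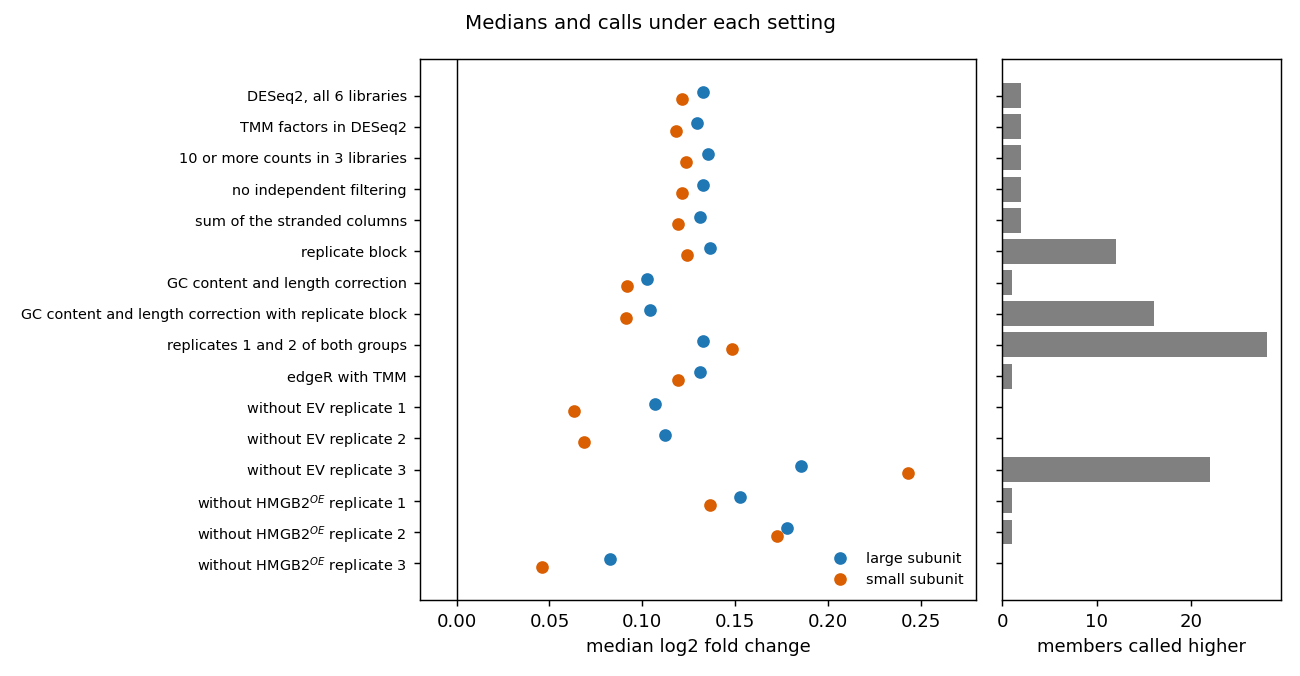
The left panel shows the median log2 fold change of large and small subunit genes with all 6 libraries and under 15 alternative settings, and the right panel the number of the 85 genes called higher. Medians stay above 0 throughout, small subunit medians exceed large ones without EV replicate 3 and with replicates 1 and 2 of both groups, and calls run from 0 to 28.

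The P-stalk proteins RPLP0, RPLP1 and RPLP2 recruit translation factors to the large subunit. Their log2 fold changes were 0.06 (SE 0.14), 0.12 (SE 0.12) and 0.12 (SE 0.12), none called. RPLP0, which is widely used as a reference gene in quantitative PCR, had 201700, 189600 and 262900 normalized counts in EV and 219100, 222200 and 240000 in HMGB2OE, so that EV alone spanned all HMGB2OE values. Its log2 fold change was 0.22 without EV replicate 3, the highest value with a library left out.

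The paralogs were low next to the core genes and none was called. Their mean TPM ran from 0.183 (RPL3L) to 423 (RPL36AL). At an unadjusted p under 0.05, 0 of 8 were higher and 0 lower, and edgeR called 0 of 8. The median log2 fold change was 0.14 over the 7 with a mean of 10 or more, against 0.13 over the core genes, and 5 of the 7 were positive.

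RPL22L1 can replace RPL22 in the ribosome. It had 5616, 6559 and 8331 normalized counts in EV and 8290, 7162 and 9637 in HMGB2OE, a difference of 0.29 on the log2 scale (SE 0.17, adjusted p = 0.455 by DESeq2). The groups overlapped through EV replicate 3. Without that library it was 0.46 (adjusted p = 0.00196 by DESeq2), but without EV replicate 1 it was 0.17 and without HMGB2OE replicate 3 it was 0.18, neither called. RPS27L, a p53-inducible relative of RPS27, had 3480, 3950 and 5427 in EV and 4585, 4265 and 5544 in HMGB2OE, and log2 fold changes of 0.16 (adjusted p = 0.793, DESeq2) and, without EV replicate 3, 0.37 (0.0132). It was 0.03 without EV replicate 1, 0.05 without HMGB2OE replicate 3 and 0.11 without EV replicate 2.

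RPL39L, a copy of the exit tunnel protein RPL39 known from testis and tumours, had 1150, 1036 and 1322 normalized counts in EV and 1008, 891.4 and 1084 in HMGB2OE. The log2 fold change of -0.23 (SE 0.14), with adjusted p = 0.48 by DESeq2, was the lowest among genes with a mean of 1000 or more, and the groups overlapped. It was -0.14 without EV replicate 3. RPL36AL had 6973, 7499 and 7155 in EV and 7740, 7803 and 9104 in HMGB2OE, with no overlap (0.19, SE 0.11, DESeq2 adjusted p = 0.444, and 0.11 without HMGB2OE replicate 3). RPL26L1 gave 0.14 (SE 0.13) and RPL7L1, a nuclear assembly factor, 0.01 (SE 0.14). RPL3L, a striated muscle form, was counted 8.6 to 13.3 times per library after normalization, and RPL10L, a testis form, 2.1 to 6.1 times in EV and 6.4 to 7.9 in HMGB2OE, so that neither could be compared at this depth.

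Each paralog was also set against its core gene as a ratio of TPM, and the 8 pairs were compared between groups with a two-sided exact permutation test on the log2 ratio, which at 3 against 3 cannot go below p = 0.1. RPL39L stood at 1.66%, 1.43% and 1.49% of RPL39 in EV and 1.14%, 1.19% and 1.07% in HMGB2OE, with no overlap. The mean log2 ratio of HMGB2OE minus that of EV was -0.43 (SD of the log2 ratios 0.11 in EV and 0.08 in HMGB2OE), with an exact p of 0.1 (0.2 adjusted over 8 pairs). RPL22L1 was 27.4%, 28.6% and 40.7% of RPL22 in EV and 35.0%, 32.03% and 38.4% in HMGB2OE, with overlap. RPL26L1 was 212.0% to 225.1% of RPL26 in EV and 198.9% to 208.0% in HMGB2OE, also without overlap. However, RPL26 is a core gene with a low count, a mean of 936.5 normalized counts. It shares 68.06% of its words with other genes, and 14.54% of its exon bases are overlapped on the same strand. Reads of RPL26 may be set aside by the counting rule. Whether the paralog exceeds its core gene thus cannot be told from this ratio. Ratios to RPL10 and RPL36A rest on core genes with counting losses or on fewer than 10 counts and are not described. None of the 8 adjusted values was below 0.2.

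Other genes of the translation machinery were tested in the same fit. FAU encodes a ribosomal protein fused to a ubiquitin-like protein, and RACK1 is a scaffold protein on the small subunit. Their log2 fold changes were 0.04 (SE 0.16) and -0.02 (SE 0.12), and neither was called by DESeq2 or edgeR or had an unadjusted p under 0.05. Of 16 other mRNAs of the TOP class, mostly elongation and initiation factors, 15 were tested. EEF1G was at 0 in every column of every library, and whether its mRNA is absent cannot be told from these counts. Of the 15 tested, 0 were called higher or lower, with 0 at an unadjusted p under 0.05 and 0 in edgeR. Their median was 0.06, with 10 of 15 positive, against 49.8% of all genes averaging at least 10 normalized counts. When EV replicate 3 was left out, 2 of 15 were called higher, against 8.31% of all genes, and 1 lower, against 9.46%. Those higher were TPT1 (0.48, adjusted p = 8.2e-05 by DESeq2) and the elongation factor EEF1A1 (0.23, 0.0293). The elongation factor EEF2 was lower (-0.25, 0.0337). The either-strand column held 29.0% of the stranded counts of TPT1. With replicates 1 and 2 alone, 2 were called higher and 2 lower, against 8.01% and 9.44%.

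The 30 ribosome biogenesis genes, which process rRNA and assemble subunits in the nucleolus, had a median log2 fold change of -0.08. Of these, 7 were positive and 23 negative, against 49.8% positive over all genes averaging at least 10 normalized counts. DESeq2 called 0 of 30 in either direction, and edgeR called 0. At an unadjusted p under 0.05, 5 were lower and 0 higher, against 7.31% and 6.98% of all genes tested. Without EV replicate 3, 6 of 30 were called lower and 0 higher, against 9.46% of all genes called lower, and with replicates 1 and 2 alone 10 were called lower, against 9.44%. Their median sign was thus opposite to that of the ribosomal protein genes, a difference that was not tested.

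Among 10 regulators, EIF4EBP1 was called lower and 0 higher, against 2.64% and 2.29% of all genes tested. Without EV replicate 3, 3 of 10 were called lower and 0 higher, against 9.46% and 8.31%. With replicates 1 and 2 alone 4 were called lower and 0 higher, against 9.44% and 8.01%. MYCN, a relative of MYC, had the largest log2 fold change of the list, 1.62 (SE 0.55, DESeq2 adjusted p = 0.0591), on 7.1, 8.9 and 8.6 normalized counts in EV and 30.9, 28.6 and 15.8 in HMGB2OE, with no overlap. EIF4EBP1 encodes 4E-BP1, an mTOR-controlled repressor of cap-dependent translation. Its normalized counts were 16995, 16277 and 14930 in EV and 12415, 12281 and 10918 in HMGB2OE, with no overlap. Its log2 fold change of -0.44 (SE 0.11) had adjusted p = 0.0019 by DESeq2 and 0.0435 by edgeR. The call was lost without EV replicate 1, EV replicate 2 or HMGB2OE replicate 3. MYC, which drives transcription of ribosomal protein and biogenesis genes, had 1604, 1322 and 1163 in EV and 1292, 1240 and 1106 in HMGB2OE (-0.17, SE 0.15, DESeq2 adjusted p = 0.716, and -0.27 without EV replicate 3). LARP1, which binds the TOP tract, had 6675, 6971 and 2822 in EV and 5198, 6075 and 3709 in HMGB2OE (-0.14, SE 0.44, DESeq2 adjusted p = 0.949, and -0.45 without EV replicate 3). LARP1 was lowest in replicate 3 of both groups, the libraries in which most ribosomal protein genes were highest. This was not particular to LARP1. The median deviations of the 10 regulators were also lowest there (-0.22 in EV and -0.17 in HMGB2OE), as were those of genes with long transcripts (-0.14 and -0.05). A link of LARP1 to the ribosomal protein levels was not tested.

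Ribosomal protein genes grouped by start or gene structure had near-equal medians. The 47 genes with a pyrimidine run at the listed start had a median log2 fold change of 0.13, as did the 20 without one that had a mean of 10 or more (0.13). The 28 genes with a snoRNA gene inside, from whose introns small nucleolar RNAs are cut, had 0.13, and the other 56 had 0.13. By chromosome, 12 of the genes lie on chromosome 19, 9 on chromosome 3 and 6 on chromosome 17.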

How the data were processed

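Per the labels, RNA from A375 cells was enriched with oligo(dT) beads and made into libraries with the NEBNext Ultra kit. The submitters' notes name bcl2fastq 2.20, FastQC, Trimmomatic and STAR, with GRCh38. The STAR version and the annotation release are not given in the sources used here. What the authors deposited were raw counts of reads in each gene, not normalized, in 3 columns per library (either strand and each strand), where a read counts once if it maps to 1 place and 1 gene. The either-strand column was used. Of 58302 gene IDs, 57532 matched GENCODE release 44, which gave symbols, positions and lengths.

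The main test was DESeq2 1.42.0 (R 4.3.3, Wald test on group, size factors, Benjamini-Hochberg adjustment over all genes, independent filter at alpha 0.1), called at an adjusted p under 0.05. edgeR 4.0.16 (quasi-likelihood test, TMM) was an alternative. Both were tested on simulated data. Summaries used genes averaging at least 10 normalized counts. The alternatives were other scaling, a filter of 10 counts in 3 libraries, no independent filter, both stranded columns summed, a replicate block, a GC content and length correction per library, fewer libraries and combinations of these. Sharing between genes was counted in 50-base words of annotated transcripts. Python 3.11.15 with pandas 2.3.3 and numpy 2.4.6 was used for the summaries, and normalized counts are printed to 4 digits.

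The named genes were HMGB2, every called member, the paralogs, the P-stalk genes, the 5 highest and 5 lowest core genes by log2 fold change and by TPM, members with most exon bases overlapped, called genes of the related lists, and FAU, RACK1, MYC and LARP1. Some items covered by this rule are not reported here. The members and lists were chosen with earlier results of these data known. KRT5, COL1A1, TPT1, EEF1A1, EEF2, MYCN and the genes listed as not overlapping were named after their values were seen. Intervals cover the spread between these libraries only, and depths of 45925053 to 56755212 assigned reads per library leave genes with fewer than 10 counts unresolved.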

Additional observations from a re-analysis of the deposited data

Results flagged for a closer look

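RPS23, a small subunit protein at the decoding centre, had a signal in columns that the comparisons did not use. The stranded columns held 608837 counts for RPS23 summed over 6 libraries, of which 7.92% appear in the either-strand column. ATG10, which overlaps it on the other strand, had 564596 stranded counts and 3970 in the either-strand column. The library kit does not mark strand, so the reads of the gene pair cannot be told apart. The log2 fold change of RPS23 was 0.10 in the either-strand counts and 0.09 in the stranded sum.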

How the results depend on the processing

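HMGB2 stayed higher under every setting (0.98 to 1.09 with a library left out). With all libraries 2 ribosomal protein genes were called higher, against 2.29% of all genes tested. The number was also 2 with TMM factors in DESeq2 (2.24% of all genes), the count filter (2.75%), no independent filtering (1.02%) and the stranded sum (2.09%). It was 1 with edgeR (1.28%) and with the GC content and length correction (3.26%). Replicates 1 and 2 of both groups gave 28 (8.01%), and leaving a library out gave 0 to 22 (0.839% to 8.31%). Throughout, 0 were called lower. Genes whose groups did not overlap were 13 higher and 1 lower with all libraries, against 11.4% of all genes each way. With the GC content and length correction, with or without the replicate block, they were 21 higher (12.4% of all genes) and 1 lower (14.2%). Replicates 1 and 2 gave 60 higher (29.5%) and 3 lower (30%). With a library left out they were 12 to 60 higher (13.4% to 25.5%) and 1 to 2 lower (14.2% to 26.2%). The median log2 fold change of all ribosomal protein genes ran from 0.06 to 0.21 with a library left out, that of large subunit genes from 0.08 to 0.19, small subunit genes 0.05 to 0.24, core genes 0.06 to 0.21 and paralogs 0.04 to 0.19. In the related lists 0 genes were higher and 1 lower with all libraries, against 2.29% and 2.64% of all genes tested. With the count filter 1 was higher (2.75% of all genes) and 1 lower (3.15%). The GC content and length correction gave 1 higher (3.26%) and 3 lower (4.22%). Replicates 1 and 2 gave 2 higher (8.01%) and 16 lower (9.44%). With a library left out 0 to 2 were higher (0.839% to 8.31%) and 0 to 10 lower (1.13% to 9.46%). The cause of these changes was not tested.

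Whether the replicate numbers pair the samples could not be settled from these libraries. Same-numbered libraries correlated in their deviations by 0.0906, 0.142 and 0.349. EV replicates 2 and 3 correlated best with the HMGB2OE library of their own number, and EV replicate 1 with HMGB2OE replicate 2 (0.212). Replicate 3 of each group correlated negatively with replicates 1 and 2 of the other (-0.272 to -0.137). With the replicate block 12 of 85 ribosomal protein genes were called higher, against 6.09% of all genes tested. In the related lists 1 gene was higher and 5 lower, against 6.09% and 6.46%. The replicate block with the GC content and length correction gave 16 ribosomal protein genes higher, against 6.89%. It gave 1 related gene higher and 7 lower, against 6.89% and 7.64%.

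The sign of 9 uncalled log2 fold changes near 0 depended on the setting. RPL10 was 0.078 in the stranded sum, 0.024 with the GC content and length correction, 0.027 with that and the replicate block, 0.059 with replicates 1 and 2, and -0.047 to 0.057 with a library left out. RPL28 was 0.0015 and 0.0013 with the correction, without and with the block, and -0.075 to 0.0082 with a library left out. RPL7L1 was -0.010 and -0.0049 with the correction, without and with the block, -0.057 with replicates 1 and 2, and -0.11 to 0.11 with a library left out. RPS14 was 0.0060 with the block, 0.0040 and 0.016 with the correction, without and with the block, 0.10 with replicates 1 and 2, and -0.14 to 0.15 with a library left out. RPS2 was 0.0025 with the correction and the block, 0.031 with replicates 1 and 2, and -0.10 to 0.080 with a library left out. With a library left out, RPL3L ran from -0.24 to 0.14, RPL8 from -0.028 to 0.11, RPLP0 from -0.035 to 0.22 and RPS16 from -0.031 to 0.20. Among values of single named genes under an alternative, 332 kept direction and side of the threshold, 32 changed sign, 12 gained a call and 10 lost it.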
